A study of Mus musculus with 4 samples.

Results

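The osteoblast and osteocyte genes described here were the transcription factors Runx2 and Sp7, the type I collagen chains Col1a1 and Col1a2, the osteocalcin genes Bglap and Bglap2, the osteocyte matrix and mineralisation genes Dmp1, Mepe and Phex, and the sclerostin gene Sost. They were chosen by gene symbol, and all 10 were found among the 24532 genes of the expression table. Expression was measured in 4 RNA-seq libraries of articular cartilage from wild type C57BL/6 mice, 1 each for sham and injured cartilage of young mice and of adult mice. Young mice were 3 weeks old, and the adult mice are given as 10 weeks in the methods and as 12 and 14 weeks in the labels. Injured cartilage was taken on day 3. The methods describe a full-thickness cartilage injury (FTCI) cut into the patellar groove of the femur, whereas the labels name DMM surgery, an operation on the meniscus. The label of the adult sham library covers days 3 to 14, so that its time after surgery is not matched to that of the other libraries. Each library was a pool of cartilage from 5 uninjured or 10 injured male mice. With 1 library per group there is no replicate and no test, and every difference below is between libraries, without a measure of the spread between animals.

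Osteoblasts lay down the organic matrix of bone, which is mostly type I collagen, and bring about its mineralisation. Runx2 and, downstream of it, Sp7 (osterix) direct cells into this lineage, and Runx2 also acts in chondrocytes that enlarge before cartilage is replaced by bone. Some osteoblasts become buried as osteocytes, which secrete acidic matrix proteins, regulate phosphate and release sclerostin, an inhibitor of Wnt signalling that restrains bone formation. Hyaline articular cartilage is built on type II collagen, and bone lies directly beneath its calcified layer.

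Levels are given as FPKM, fragments divided by transcript length and by the mapped fragments of the library, a scale that allows comparison between genes. Differences are log2 ratios of FPKM + 1, a scale on which changes of genes at low levels appear smaller than they are. A gene is said to have risen or fallen when the ratio reached 2-fold. The 4 comparisons share libraries, so they are not independent of one another. In such bulk tissue, a change in the number of cells of a type and a change in RNA per cell cannot be told apart. If the regular steps of the lowest values stand for single fragments, the libraries held between 26100000 and 31100000 fragments. The labelled chondrocytes were visible in every library. All 10 chondrocyte markers were at 1 FPKM or more, and Col2a1 ranged from 3173 FPKM in adult sham to 9349 FPKM in young sham cartilage. Between the sham libraries 5 of these markers were at least 2-fold lower in the adult (Col2a1, Matn3, Hapln1, Col9a1 and Col11a1, beside 10.6% of all genes) and 2 higher (Comp and Cytl1, beside 2.66%). Of the 10 osteoblast and osteocyte genes, 9 were at 1 FPKM or more in all 4 libraries, the exception being Sost.

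The plainest pattern lay between the ages. In adult sham against young sham cartilage, 5 of the 10 genes were at least 2-fold higher, namely Bglap, Bglap2, Dmp1, Mepe and Sost, beside 2.66% of the 18181 genes detected in any library. None was at least 2-fold lower, beside 10.6% of all genes. The same 5 genes were at least 2-fold lower in young injured than in adult injured cartilage, beside 1.80% of all genes, and 0 were higher, beside 3.09%. With injury, 2 of 10 genes rose in young mice (Col1a1 and Dmp1, beside 4.57% of all genes) and 0 fell (beside 1.27%). In adult mice 4 of 10 rose (Runx2, Phex, Col1a1 and Col1a2, beside 6.90%), while Sost fell (1 of 10, beside 1.46%). The number that rose in young mice was 1 (Col1a1) with FPKM rescaled to equal sums (TPM) and with a pseudocount of 5 FPKM. In adults it was 1 (Col1a1) after median-of-ratios scaling and 2 (Col1a1 and Col1a2) after quantile normalization.

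**Figure D1:**
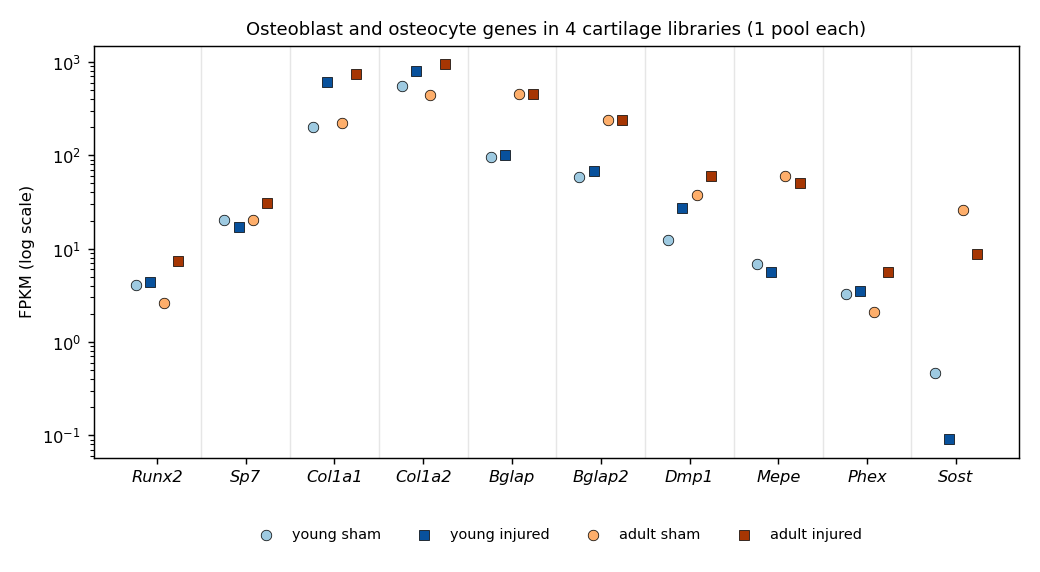
Levels of the 10 genes in FPKM (log scale). Each point is 1 pooled library, with circles for sham and squares for injured cartilage, in blue for young and orange for adult mice. Bglap, Bglap2, Mepe and Sost separate by age, whereas Col1a1 and Col1a2 separate by injury.

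The median log2 ratio of the 10 genes was 0.83 for adult against young sham cartilage, where the median of all genes was −0.15. It was −0.96 for young injured against adult injured cartilage (all genes, 0.04), 0.63 for injury in adults (all genes, 0.14) and 0.08 for injury in young mice (all genes, 0.00). All 10 genes had ratios below 0 in the comparison of the injured libraries, from −0.22 for Col1a2 to −3.15 for Sost, beside 7383 of all 18181 detected genes. The general level of the libraries also differed. Over the 10891 genes that reached 1 FPKM in every library, the median was 0.23 for injury in adults and −0.30 for adult against young sham cartilage, and after median-of-ratios scaling, in which a single factor per library aligns most genes, they were −0.06 and 0.07. The adult sham library carried 26541 FPKM of Cytl1, a cytokine-like cartilage gene, against 359.7 to 5550 FPKM in the others.

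**Figure D2:**
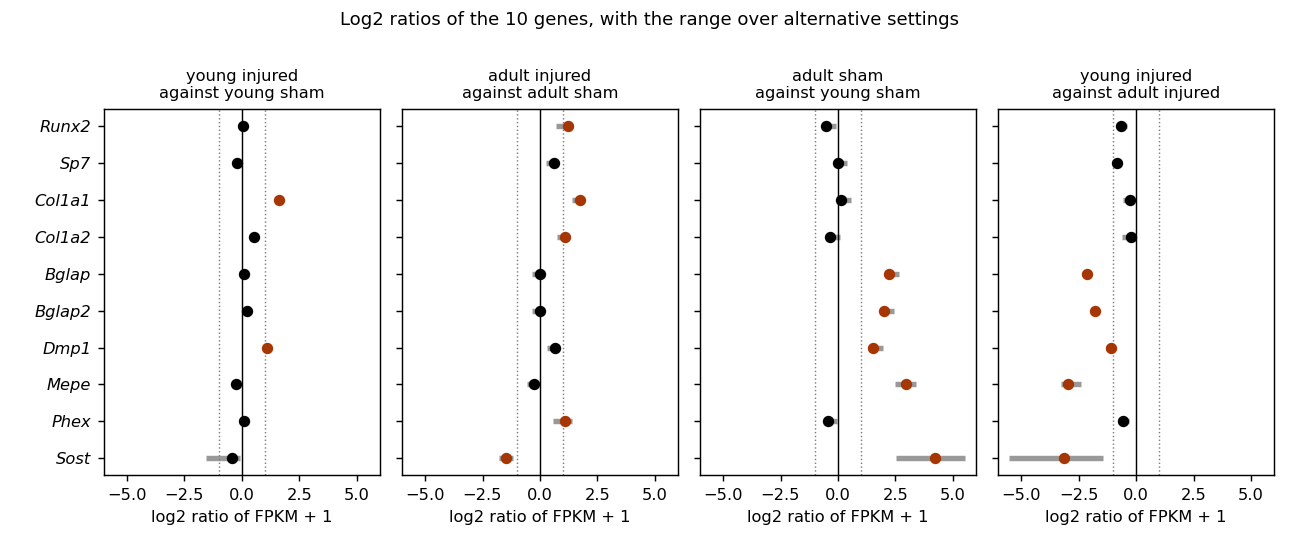
Log2 ratios of FPKM + 1 for the 10 genes in the 4 comparisons. Points are the reported ratios, in orange at 2-fold or more and in black otherwise, grey bars span the alternative settings, and dotted lines mark 2-fold. The adult sham against young sham panel has 5 orange points, all to the right, and the bars of Sost, which was below 1 FPKM in both young libraries, are the widest in every panel but that of injury in adults.

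Promoter sequence was available from RefSeq (GRCm38.p6) for 7 of the 10 genes, and for Sp7, Bglap2 and Col1a1 none was matched. The 4 windows printed here were chosen because they stand before the genes with the clearest separation by age, Bglap, Dmp1, Mepe and Sost. Each holds the 250 bases before the annotated start, written 5′ to 3′ on the strand of the gene. They are Bglap (chr3:88384467-88384716, minus strand), Dmp1 (chr5:104202367-104202616, plus strand, the start of the 2 listed that matched an annotated transcript), Mepe (chr5:104325079-104325328, plus strand) and Sost (chr11:101967016-101967265, minus strand). Capitals mark the letters TGTGGT, the core recognised by RUNX factors, or its reverse complement ACCACA, so that both strands were searched. They also mark the letters TATAAA, searched on the strand of the gene only.
Bglap: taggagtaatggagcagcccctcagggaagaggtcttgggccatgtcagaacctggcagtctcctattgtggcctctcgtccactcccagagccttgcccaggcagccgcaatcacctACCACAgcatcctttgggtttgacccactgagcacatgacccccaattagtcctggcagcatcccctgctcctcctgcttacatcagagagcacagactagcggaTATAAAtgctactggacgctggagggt
Dmp1: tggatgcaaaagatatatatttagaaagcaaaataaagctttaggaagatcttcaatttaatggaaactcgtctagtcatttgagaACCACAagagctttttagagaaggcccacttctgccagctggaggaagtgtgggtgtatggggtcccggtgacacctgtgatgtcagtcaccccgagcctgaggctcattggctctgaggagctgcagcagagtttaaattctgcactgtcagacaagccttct
Mepe: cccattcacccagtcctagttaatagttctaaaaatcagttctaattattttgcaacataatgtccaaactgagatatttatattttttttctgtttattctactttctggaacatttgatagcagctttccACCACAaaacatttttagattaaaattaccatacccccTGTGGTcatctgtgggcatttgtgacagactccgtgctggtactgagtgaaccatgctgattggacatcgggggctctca
Sost: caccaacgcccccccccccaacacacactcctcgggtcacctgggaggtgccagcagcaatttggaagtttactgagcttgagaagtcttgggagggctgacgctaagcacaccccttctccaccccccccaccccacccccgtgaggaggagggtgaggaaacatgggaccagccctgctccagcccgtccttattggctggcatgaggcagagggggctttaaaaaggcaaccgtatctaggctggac

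The RUNX letters began 132 bases before the start of Bglap, 164 bases before that of Dmp1, and 118 and 80 bases before that of Mepe. They were also present 80 bases before the start of Runx2 itself, and were not found in the windows of Sost, Col1a2 and Phex or before the first of the listed Dmp1 starts. Among 32851 promoter windows of the same length, 14.0% held them. Bglap alone of the 7 genes held TATAAA, 27 bases before its start, a sequence present in 7.59% of all windows. These matches are a description of letters in a short window, and say nothing about whether a factor was bound there.

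Runx2 is the regulator that commits mesenchymal cells to the osteoblast lineage. It was at 4.11 and 4.34 FPKM in young sham and young injured cartilage, and 2.60 and 7.31 FPKM in the adult pair (sham, then injured). The adult libraries held both its lowest and its highest level, with the young ones between them. Between the sham libraries its log2 ratio was −0.50, but only −0.17 after median-of-ratios scaling and −0.08 after quantile normalization. Its log2 ratio after injury was 1.21 in adults and 0.06 in young mice. The rise in adults depended on the scaling, with 0.95 under median-of-ratios scaling and 0.84 under quantile normalization, both short of 2-fold, and the small ratio in young mice turned to −0.03 as TPM. Exons of Runx2 overlap the antisense gene Runx2os1 by 519 bases. The library kit preserves strand, but whether the quantification used it is not given in the sources used here.

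Sp7, which acts after Runx2 and is needed for osteoblasts to form, was at 20.3 (sham) and 17.2 FPKM (injured) in young mice, and 20.1 and 31.1 FPKM in adults. The first 3 of these libraries were close together, and adult injured cartilage was the highest. Injured and sham cartilage differed by a log2 ratio of −0.23 in young mice and 0.61 in adults, both below 2-fold. For adult against young sham cartilage it was −0.01, a direction that changed to 0.40 after median-of-ratios scaling and to 0.23 after quantile normalization. Sp7 was thus one of 5 members without a 2-fold difference between the sham libraries, and its level was several-fold above that of Runx2 in each library.

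Col1a1 encodes the alpha 1 chain of type I collagen, the main fibre of bone, tendon and skin. It was at 202.5 FPKM in young sham cartilage against 615 with injury, and 223.2 FPKM in adult sham cartilage against 741 with injury. Both injured libraries lay well above both sham libraries. It rose with injury by a log2 ratio of 1.60 in young mice and 1.73 in adults, or 3.04-fold and 3.32-fold without the added 1 FPKM, and the sham libraries differed by 0.14. Col1a1 was the only one of the 10 genes that rose in both injury comparisons.

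Col1a2 encodes the alpha 2 chain, which joins a pair of alpha 1 chains in the collagen molecule. Its levels were 557 and 804 FPKM in young sham and young injured cartilage, and 443 and 939 FPKM in the adult pair. The order of the libraries again put injured above sham, over a narrower range. The log2 ratio was 0.53 in young mice and 1.08 in adults, and the latter came to 0.75, short of 2-fold, after median-of-ratios scaling. Between the sham libraries it was −0.33, which turned to 0.11 under that scaling.

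The balance of the collagen chains can be read within a library, where the scaling between libraries has no effect. Col1a1 stood at 0.364 of the Col1a2 level in young sham and 0.504 in adult sham cartilage, against 0.765 and 0.789 in young injured and adult injured cartilage. Relative to Col2a1, the cartilage collagen, it was 0.0217 (sham) and 0.0778 (injured) in young mice, and 0.0704 and 0.198 in adults. Col1a1 therefore stood higher against Col2a1 in the injured library at both ages. Relative to Col3a1, a collagen of fibroblasts and loose connective tissue, it was 0.377 in young sham and 0.796 in young injured cartilage, but 0.936 and 0.913 in the adult sham and adult injured libraries. In adults the levels of Col1a1 and Col3a1 thus stood in nearly the same ratio before and after injury.

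**Figure D3:**
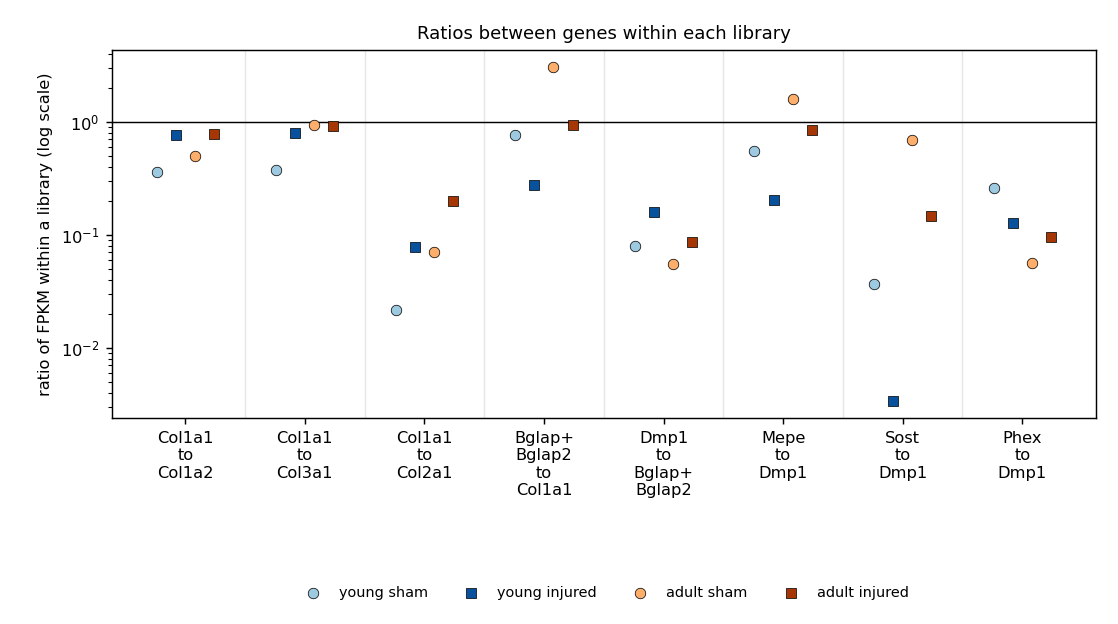
Ratios of FPKM between genes of the same library (log scale), with circles for sham and squares for injured cartilage, in blue for young and orange for adult mice. Adult sham cartilage is highest in osteocalcin (Bglap + Bglap2) to Col1a1 at 3.09, in Mepe to Dmp1 at 1.61 and in Sost to Dmp1 at 0.689.

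Bglap encodes osteocalcin, a small protein that binds calcium and is secreted by mature osteoblasts, and its promoter window above holds both marked sequences. Its level was 96.8 FPKM in young sham cartilage against 102 with injury, and 449 FPKM in adult sham cartilage against 453 with injury. The libraries fell into a young and an adult pair, with injured and sham cartilage alike within each pair. The log2 ratio of adult to young sham cartilage was 2.20, and that of young injured to adult injured cartilage was −2.14. After injury the ratio was 0.07 in young mice and 0.01 in adults, and both of these small values turned negative under other scalings, to −0.05 as TPM and −0.33 after median-of-ratios scaling.

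Bglap2, a second osteocalcin gene, followed the same order with 59.0 and 68.6 FPKM in young sham and young injured cartilage, and 241 and 239 FPKM in the adult pair. Its log2 ratio was 2.01 between the sham libraries, −1.79 between the injured libraries, 0.21 after injury in young mice and −0.01 after injury in adults, where it turned to 0.08 as TPM. The osteocalcin genes lie side by side on chromosome 3 of GRCm38.p6, Bglap3 at 88368616 to 88372741, Bglap2 at 88377736 to 88378701 and Bglap at 88383495 to 88384466. Aligned transcripts of Bglap and Bglap2 were identical at 434 of 440 bases, and 95.2% of the 31-base words of Bglap2 and 62.9% of those of Bglap occur in another gene. How fragments were split between them is therefore uncertain, and their sum is the safer measure. It was 156 (sham) and 170.2 FPKM (injured) in young mice, and 691 and 692 FPKM in adults.

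The sum of the osteocalcin genes was set against Col1a1, which osteoblasts and fibroblasts both express. It was 0.769 of the Col1a1 level in young sham and 0.277 in young injured cartilage, against 3.09 and 0.934 in the adult pair. The ratio was lower in the injured than in the sham library at both ages. Bglap3, the third copy, was at 39.9 FPKM in young sham cartilage against 39.2 with injury, and 180.4 FPKM in adult sham cartilage against 202.0 with injury, which is the same separation by age. It is not an independent reading, since aligned transcripts of Bglap3 were 96.4% identical to Bglap and 97.7% to Bglap2.

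Dmp1, dentin matrix protein 1, is secreted by osteocytes and takes part in mineralisation and phosphate balance. It was at 12.4 and 27.4 FPKM in young sham and young injured cartilage, and 37.7 and 59.5 FPKM in the adult pair. The level was higher with injury at each age and higher in adults in each condition. Its log2 ratio was 1.08 after injury in young mice, 0.64 after injury in adults, 1.53 between the sham libraries and −1.09 between the injured libraries. The young rise sat at the limit of 2-fold, with 0.997 as TPM and 0.895 with a pseudocount of 5 FPKM, as did the difference between the injured libraries, with −0.994 at that pseudocount.

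Mepe, matrix extracellular phosphoglycoprotein, is a product of osteocytes that restrains mineralisation, and the RUNX letters occur 2 times in its window. Levels were 6.87 (sham) and 5.58 FPKM (injured) in young mice, and 60.6 and 50.8 FPKM in adults. Both adult libraries were several times above both young libraries, with the injured library slightly below the sham library at either age. The log2 ratio was 2.97 between the sham libraries (8.82-fold without the added 1 FPKM), −2.98 between the injured libraries, −0.26 after injury in young mice and −0.25 after injury in adults.

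Phex is an endopeptidase of osteoblasts and osteocytes whose loss causes phosphate wasting. It had the lowest mean level of the 10 genes, at 3.26 FPKM in young sham cartilage against 3.51 with injury, and 2.11 FPKM in adult sham cartilage against 5.64 with injury. As with Runx2, the adult libraries held the extremes. The log2 ratio after injury was 1.09 in adults, which came to 0.85 after median-of-ratios scaling and 0.73 after quantile normalization, below 2-fold. In young mice it was 0.08, turning to −0.01 as TPM. Between the sham libraries the ratio was −0.45, but only −0.14 after median-of-ratios scaling and −0.05 after quantile normalization.

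Set against Dmp1 within each library, the other osteocyte genes went different ways. Mepe was 0.554 of the Dmp1 level in young sham and 0.204 in young injured cartilage, against 1.61 and 0.854 in the adult pair. Phex was 0.262, 0.128, 0.0560 and 0.0948 of it in the same order. Mepe thus stood highest in adult sham cartilage, the library in which Phex stood lowest. Dmp1 itself was 0.0797 of the osteocalcin sum in young sham and 0.161 in young injured cartilage, against 0.0546 and 0.0860 in the adult sham and adult injured libraries.

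Sost encodes sclerostin, which binds the Wnt co-receptors Lrp5 and Lrp6 and is made by mature osteocytes, and its window held neither marked sequence. Its level was 0.459 and 0.0915 FPKM in young sham and young injured cartilage, and 26.0 and 8.67 FPKM in the adult pair. Both young libraries were below 1 FPKM and both adult libraries far above it, with adult sham the highest. The log2 ratio was 4.21 between the sham libraries, 56.5-fold without the added 1 FPKM, and −3.15 between the injured libraries. This was the widest separation by age among the 10 genes at a pseudocount of 1 FPKM, whereas at 5 FPKM the injured libraries differed by −1.43 for Sost and −2.40 for Mepe. After injury in adults Sost fell by 1.48 on the log2 scale, to 0.334 of the sham level, and median-of-ratios scaling gave −1.80.

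In young mice the log2 ratio of Sost after injury was −0.42, which does not reach 2-fold, but with a pseudocount of 0.1 FPKM it was −1.55. If the smallest steps of the values are single fragments, the young levels rest on about 25 fragments in sham cartilage (95% exact Poisson interval 16.2 to 36.9) and 5 in injured cartilage (1.62 to 11.7), against 468 in adult injured cartilage (427 to 512). These intervals cover counting error only. Sost stood at 0.0370 of the Dmp1 level in young sham and 0.00334 in young injured cartilage, against 0.689 and 0.146 in the adult pair. Its level relative to that of Dmp1 was therefore lower in the injured library at both ages.

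The 10 genes did not keep the same order of abundance in the 4 libraries. Col1a2 was the most abundant in young sham, young injured and adult injured cartilage, whereas Bglap was first in adult sham cartilage with Col1a2 second. Sost held rank 10 of 10 in both young libraries, rank 7 in the adult sham and rank 8 in the adult injured library. Mepe held rank 7 in both young libraries, rank 5 in the adult sham library and rank 6 in the adult injured one.

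To place the 10 genes among others, a list of 30 further genes of bone formation was examined. All 30 were above 0 in at least 1 library, and 26 were at 1 FPKM or more in all 4. In adult sham against young sham cartilage 12 of 30 were at least 2-fold higher (beside 2.66% of all genes) and 3 lower (beside 10.6%), with a median of 0.37. In young injured against adult injured cartilage 0 were higher (beside 3.09%) and 8 lower (beside 1.80%), with a median of −0.50. After injury 3 rose (beside 4.57% of all genes) and 1 fell (beside 1.27%) in young mice, with a median of −0.04. In adults 2 rose (beside 6.90%) and 1 fell (beside 1.46%), with a median of 0.15, so that the adult counts were near the shares of all genes. Median-of-ratios scaling changed the adult injury counts to 1 higher and 4 lower, with a median of −0.08, and the sham comparison to 14 higher and 0 lower.

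**Figure D4:**
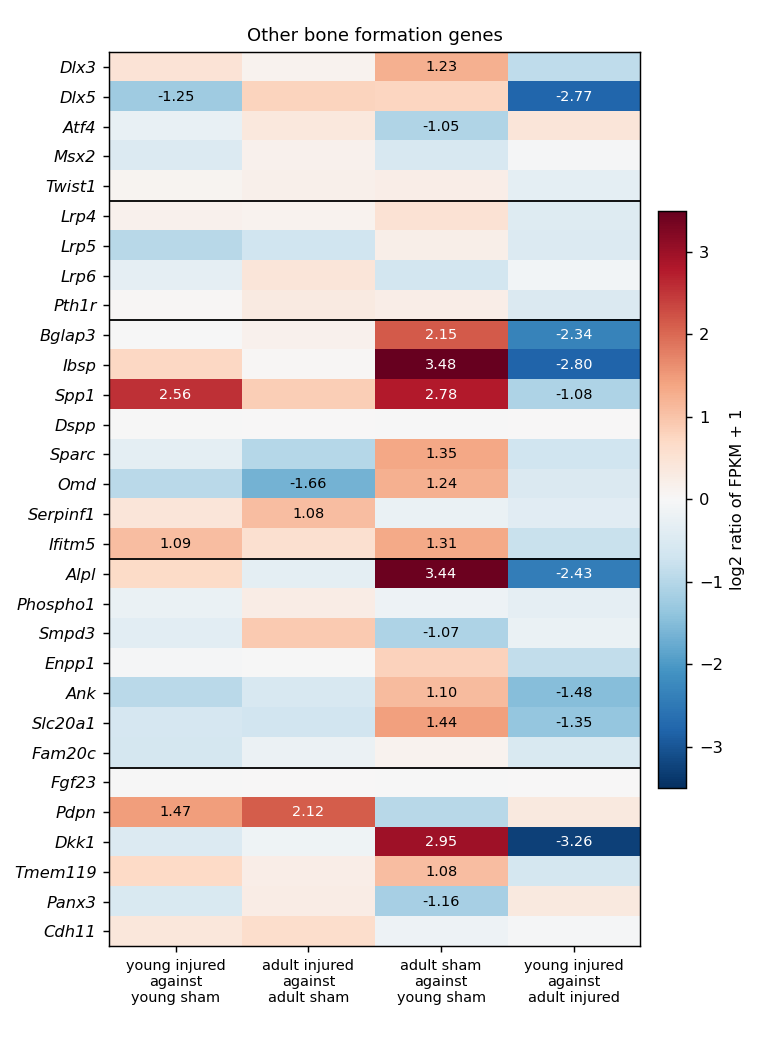
Log2 ratios of FPKM + 1 for the 30 further bone formation genes in the 4 comparisons, as colours, with the value printed where it reached 2-fold. Lines divide regulators, receptors, matrix and secreted proteins, mineralisation genes, and other osteoblast and osteocyte genes. The adult sham against young sham column holds most of the strong reds (12 genes at 2-fold or more).

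The highest ratios of the list in the sham comparison were those of Ibsp and Alpl, whose order changed with quantile normalization. Ibsp, bone sialoprotein, was at 369 (sham) and 605 FPKM (injured) in young mice, and 4136 and 4218 FPKM in adults, with a log2 ratio of 3.48 between the sham and −2.80 between the injured libraries. Spp1, osteopontin, a matrix protein that is also made by macrophages and osteoclasts, stood at 397 and 2338 FPKM in the young pair and at 2722 and 4953 FPKM in the adult pair. Ibsp thus separated by age much as osteocalcin did, while Spp1 also rose with injury in young mice by a log2 ratio of 2.56, the highest of the list. Its ratio was 0.86 in injured adults, or 1.29 after quantile normalization, and 2.78 between the sham libraries.

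Ibsp, Spp1, Dmp1 and Mepe belong to the SIBLING family of acidic, integrin-binding matrix proteins, whose genes lie together on chromosome 5. In the order of their starts they are Dspp (104170703), Dmp1 (104197575), Ibsp (104299287), Mepe (104325329) and Spp1 (104435111). The 4 other than Dspp were each at least 2-fold higher in adult sham than in young sham cartilage, by log2 ratios of 1.53 to 3.48 (beside 2.66% of all genes), and each at least 2-fold lower in young injured than in adult injured cartilage (beside 1.80%). Dspp, a dentin gene, was at 0.00860 FPKM in young sham cartilage and listed at 0 in the other 3 libraries. The neighbours therefore did not all share the high adult level.

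Alpl, tissue-nonspecific alkaline phosphatase, which releases phosphate for mineral, was at 61.3 FPKM in young sham cartilage against 98.8 with injury, and 676 FPKM in adult sham cartilage against 537 with injury. This is a log2 ratio of 3.44 between the sham libraries. Of the 7 mineralisation genes, 3 were at least 2-fold higher in adult sham cartilage (Alpl, Ank and Slc20a1, beside 2.66% of all genes) and Smpd3 was lower (beside 10.6%), with a log2 ratio of −1.07 that came to −0.64 after median-of-ratios scaling. Panx3, a channel gene of osteoblasts and enlarging chondrocytes, gave the lowest ratio of the list in that comparison, −1.16, or −0.76 after that scaling. None of the 7 mineralisation genes reached 2-fold after injury at either age (beside 4.57% of all genes higher and 1.27% lower in young mice, and 6.90% and 1.46% in adults), although under other scalings Slc20a1 came to −1.01 in adults (median-of-ratios), Smpd3 to 1.02 in adults (TPM) and Ank to −1.07 in young mice (TPM).

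Among the regulators, Dlx5, a homeobox gene of osteoblasts, was at 11.1 and 4.10 FPKM in young sham and young injured cartilage, and 19.3 and 33.8 FPKM in the adult pair. It was lower in the injured library of young mice, with a log2 ratio of −1.25, and higher in that of adults, with 0.77. Of the 4 receptor genes, which include Lrp4, Lrp5 and Lrp6 for sclerostin, 0 reached 2-fold in any comparison, a count near what the shares of all genes, 1.27% to 10.6% by comparison and direction, would give for 4 genes. Lrp5 came nearest, at 16.9 (sham) and 8.09 FPKM (injured) in young mice, and 19.5 and 11.7 FPKM in adults, a log2 ratio of −0.98 after injury in young mice that passed 2-fold as TPM, at −1.13. In adults its ratio was −0.70, or −1.02 after median-of-ratios scaling.

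Dkk1, another secreted Wnt inhibitor, was at 2.24 FPKM in young sham cartilage against 1.33 with injury, and 24.1 FPKM in adult sham cartilage against 21.4 with injury. It separated by age like Sost, by log2 ratios of 2.95 between the sham and −3.26 between the injured libraries, but its ratio after injury in adults was −0.16. Pdpn, podoplanin, which is found on early osteocytes and on stromal fibroblasts, rose by 1.47 in young mice and 2.12 in adults. Serpinf1, a secreted factor of osteoblasts that limits vessel growth, had a ratio of 1.08 in adults, which came to 0.74 after median-of-ratios scaling and 0.89 after quantile normalization, short of 2-fold. Omd, osteomodulin, a small proteoglycan of mineralised tissue, gave the lowest ratio after injury in adults, −1.66, and Sparc, osteonectin, the next at −0.999, just short of 2-fold. For Sparc, median-of-ratios scaling gave −1.34, whereas quantile normalization turned the ratio to 0.10. In the injured libraries the highest young to adult ratios of the list were 0.43 for the stress factor Atf4 and 0.35 for Panx3, both below 2-fold. Fgf23, the phosphate hormone of osteocytes, was at 0.0141 FPKM in young sham cartilage and listed at 0 in the other 3 libraries.

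Other tissues and cell types varied between the same libraries, and their part in the values of the bone genes was not tested. Hypertrophic chondrocytes, which mineralise cartilage and share genes with osteoblasts, had a summed marker level of 1232 and 3841 FPKM in young sham and young injured cartilage, and 8048 and 12700 FPKM in the adult pair, with all 8 markers at 1 FPKM or more throughout. Ibsp, Spp1, Alpl and Panx3 stand in both this list and the bone formation list. Without them the sums were 387 and 787 FPKM in the young pair and 506 and 2982 FPKM in the adult pair. Adult sham cartilage thus lay below young injured cartilage, an order that rested on Mmp13. That gene was at 25.3 and 474 FPKM in the young pair and 21.2 and 518 FPKM in the adult pair, most of the young injured sum. Col10a1, the marker most particular to these cells, was at 338 (sham) and 302 FPKM (injured) in young mice, and 459 and 2446 FPKM in adults, so that the sham libraries differed by a log2 ratio of 0.44. Between the sham libraries 4 of the 8 markers were at least 2-fold higher in the adult (Ihh and the shared Ibsp, Spp1 and Alpl, beside 2.66% of all genes) and 2 lower (Mef2c and Panx3, beside 10.6%).

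Beside the rise of Col1a1 with injury, part of the fibroblast and tendon markers rose. Their sum was 1861 FPKM in young sham cartilage against 5141 with injury, and 1828 FPKM in adult sham cartilage against 7266 with injury. Of the 10 markers, 5 rose in young mice (beside 4.57% of all genes) and 4 in adults (beside 6.90%). At either age 0 fell, near the shares of all genes that fell (1.27% in young mice and 1.46% in adults). The 2 with the highest mean level were Dcn, at 1001 and 2786 FPKM in the young pair and 1393 and 5555 FPKM in the adult pair, and Lum, at 230.0, 1437, 129 and 778 FPKM in that order, while Col3a1 was above Lum in every library but young injured cartilage. Of the 10 markers 9 were at 1 FPKM or more in all libraries. Macrophage and endothelial markers rose as well, all 6 of each list at both ages (beside 4.57% of all genes in young mice and 6.90% in adults). Macrophage sums were 165 and 243 FPKM in young and adult sham against 1492 and 1316 FPKM in the injured libraries. Endothelial sums were 15.8 and 17.7 FPKM in sham against 78.0 and 64.9 FPKM in injured cartilage.

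Osteoclasts, which resorb bone, also had higher marker levels after injury. The sum of 8 markers was 282 and 719 FPKM in young sham and young injured cartilage, and 361 and 1351 FPKM in the adult pair, and 4 of 8 in young mice and 7 of 8 in adults rose, beside the same 4.57% and 6.90%. Acp5 alone was at 122 (sham) and 306 FPKM (injured) in young mice, and 179 and 713 FPKM in adults. Between the sham libraries 0 of 8 osteoclast markers reached 2-fold in either direction, beside 2.66% of all genes higher and 10.6% lower. Skeletal muscle markers were highest in adult sham cartilage (1453 FPKM in sum) and lowest in adult injured cartilage (418 FPKM). Erythroid markers, which can come from blood or marrow, summed to 9633 FPKM in young sham cartilage against 18397 with injury, and 6950 FPKM in adult sham cartilage against 3027 with injury, and neutrophil markers ranged from 1187 to 2419 FPKM. No marker list had a member listed at 0 in all libraries.

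**Figure D5:**
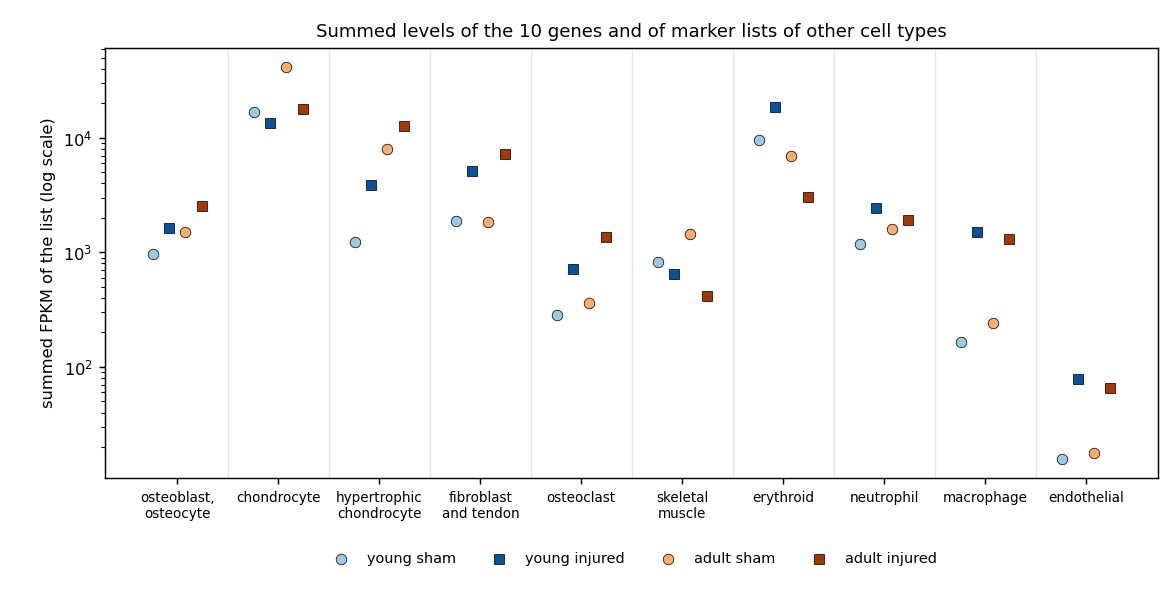
Summed FPKM (log scale) of the 10 osteoblast and osteocyte genes and of marker lists of 9 other cell types in the 4 libraries, with circles for sham and squares for injured cartilage, in blue for young and orange for adult mice. The hypertrophic sum, which includes Ibsp, Spp1, Alpl and Panx3, is higher in both adult libraries than in both young ones. The fibroblast, osteoclast, macrophage, endothelial and neutrophil sums, and that of the 10 genes, are higher in both injured libraries than in both sham ones.

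Genes with the most similar pattern over the 4 libraries were found by the distance between centred log2(FPKM + 1) values, over 8047 genes whose mean was 5 FPKM or more. Closest to Col1a1 were Nrros (distance 0.163), Tmem86a (0.190), Slc9a3r1 (0.194), Nrp2 (0.199) and Cyba (0.209). Closest to Dmp1 were Ifitm1 (0.131), Ier5l (0.210), Car5b (0.226), Prrx2 (0.236) and Fth1 (0.238). Closest to Sp7 were Wbp2 (0.109), Sgms2 (0.111), Gm16070 (0.114), Trib1 (0.137) and Prkcdbp (0.142). Neither a collagen gene nor a member of the bone formation list was among these 15 genes. A pattern over 4 libraries is matched by many genes, and the distances are given as a description only.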

How the data were processed

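The values deposited by the authors are FPKM on mm10, made from poly-A selected, strand-specific, paired-end libraries. The submitters' processing notes name HISAT2 2.1.0, StringTie 1.3.4d, HISAT, STAR and SAMtools, without their roles. FPKM correct for transcript length and mapped fragments, but not for the composition of a library. Each FPKM column was matched to its library by name. Log2 ratios of FPKM + 1 were calculated here for 18181 genes (those detected in any library) and called at 2-fold. With 1 library per group no p-value was calculated. Alternatives were pseudocounts of 0.1 and 5 FPKM, a filter of 1 FPKM in at least 1 library, quantile normalization, median-of-ratios scaling, TPM, thresholds of 1.5-fold and 3-fold, and Bglap and Bglap2 summed. The 10 genes, the lists and the tests were chosen with earlier results of these data known. Genes named beside the 10 are the 2 highest and 2 lowest ratios of the bone formation list in each comparison (mean of at least 1 FPKM), Bglap3, Ibsp, Spp1, Alpl and Fgf23, the most abundant markers of a list, and the 5 nearest patterns. Dspp, Cytl1 and the remaining names were picked with their values known. The values of 1 further bone gene were left out and are not reported here. Fragment numbers are conditional on the steps of the lowest FPKM, read from genes with a single transcript. Positions and promoters came from RefSeq tables of GRCm38.p6, and the calculations were checked on simulated data. Python 3.11.15, numpy 2.4.6, pandas 2.3.3, scipy 1.17.1, Biopython 1.88 and matplotlib 3.10.9 were used.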

Additional observations from a re-analysis of the deposited data

Results flagged for a closer look

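The log2 ratio after injury had opposite signs at the 2 ages for 2 of the 10 genes and for 9 of the 30 genes of the bone formation list. These differences were not tested, since each group has 1 library. The share of all genes with opposite signs was not computed, so the counts cannot be called particular to bone genes. Over all 18181 detected genes, 8623 ratios were above 0 and 9079 below in young mice, against 12223 and 5017 in adults. For Sp7 the adult ratio minus the young ratio was 0.835, from 0.61 in adults and −0.23 in young mice. For Bglap2 it was −0.229, from −0.01 in adults and 0.21 in young mice. For Dlx5, the only one of the 11 genes that reached 2-fold at either age, it was 2.03, from 0.77 in adults and −1.25 in young mice. In the rest of the list the difference was 0.627 for Atf4, 0.607 for Msx2, 0.728 for Lrp6, 0.188 for Bglap3, −1.01 for Alpl, 0.489 for Phospho1, 1.3 for Smpd3 and 0.804 for Panx3. The count depended on the scaling. It was 4 of 10 and 12 of 30 as TPM, 3 of 10 and 12 of 30 after median-of-ratios scaling, and 2 of 10 and 13 of 30 after quantile normalization, and the signs of Bglap2, Bglap3, Phospho1 and Panx3 were no longer opposite under at least 1 of these.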

How the results depend on the processing

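No paired analysis was possible because each group has 1 library, and for the same reason no library could be left out. Of 72 counts of the 10 genes under the alternatives, 63 stayed within 1.5 times the reported count and 9 did not. In young mice the number that rose was 1 (Col1a1) with a pseudocount of 5 FPKM, as TPM and at 3-fold, and the number that fell was 1 (Sost) with a pseudocount of 0.1 FPKM. In adults the number that rose was 2 (Col1a1 and Col1a2) with a pseudocount of 5 FPKM and after quantile normalization, and 1 (Col1a1) after median-of-ratios scaling and at 3-fold, and the number that fell was 0 at 3-fold. Of the 17 differences called at 2-fold, 12 were past it in every alternative run at that threshold. The sign changed under some alternative in 7 of 40 pairs of gene and comparison, which are those of Runx2, Bglap and Phex for injury in young mice, Bglap and Bglap2 for injury in adults, and Sp7 and Col1a2 between the sham libraries. None of these 7 ratios had reached 2-fold. Over the same alternatives at 2-fold, the bone formation list gave 2 to 3 higher and 0 to 4 lower genes for injury in young mice, 1 to 3 and 1 to 4 for injury in adults, 9 to 14 and 0 to 5 for adult against young sham cartilage, and 0 and 8 to 11 for young injured against adult injured cartilage. The low level of Sost in young cartilage limits the size of its ratios, and the absence of replicates limits every comparison.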
